A study of Homo sapiens with 12 samples.

Results

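The comparison described here asks how gene expression differed with the ΔIDR1b form of ARID1A in human ARID1A-knockout cells that had received no EWS-FLI1. It took 4 of the 12 RNA libraries of the study, chosen by their labels. The 2 libraries of the knockout group came from ARID1A-knockout 293T cells given empty vectors only, and the 2 libraries of the ΔIDR1b group came from the same knockout line overexpressing ARID1A ΔIDR1b together with an empty vector. 293T is an established line of human embryonic kidney cells, and the submitters call the knockout line 12KO. The labels do not say whether it is a single clone or how the ARID1A constructs were delivered, and parental 293T cells were not analysed here. The other 8 libraries came from knockout cells overexpressing wild-type (WT) ARID1A with an empty vector, and from knockout, WT and ΔIDR1b cells overexpressing EWS-FLI1. The labels of all 12 libraries, the 4 compared here included, carry 1 protocol, a transfection with 2 µg of EWS-FLI1 plasmid and 48 h of further growth. The amount of empty vector is not given, and the titles of the 4 libraries name empty vector in place of EWS-FLI1. The WT group with the empty vector and the EWS-FLI1 groups are used below only beside the main comparison.

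ARID1A is the AT-rich DNA-binding subunit of canonical BAF, one of the SWI/SNF complexes, which use ATP to slide and evict nucleosomes and so open enhancers and promoters to transcription factors. Long stretches of the protein have no fixed fold and are called intrinsically disordered regions (IDRs). IDR1b is a segment of one of them, which the ΔIDR1b form lacks. Such regions can bring SWI/SNF complexes together in condensates and can take part in recruiting them to chromatin. ARID1A is often lost in carcinomas, and its close paralog ARID1B can take its place in the complex. At many enhancers BAF works with AP-1 and TEAD factors, and it opposes Polycomb repression at developmental genes.

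The 4 libraries held between 12893088 and 13845881 counts of read pairs assigned to genes, and 3 counts, the most that a gene with no count could hide, were worth 0.217 to 0.233 CPM. Values below are CPM, counts scaled to a common library size with TMM factors, and a log2 fold change is the ΔIDR1b group over the knockout group unless another pair is named. The scaling factors were 0.97 and 0.98 for the knockout libraries and 1.06 in both ΔIDR1b libraries. The 100 most abundant genes took from 18.6 to 19.03% of the counts in the knockout libraries and from 15.3 to 15.5% in the ΔIDR1b libraries. Counts on the mitochondrial genome took 2.24 and 2.26% against 1.88 and 2.09%. FLI1, whose DNA-binding part the EWS-FLI1 fusion carries, had 0 and 0 counts in the knockout libraries and 2 and 1 counts in the ΔIDR1b libraries. The labels call the libraries of a group repeats without saying whether they came from separate cultures. The p-values rest on a spread between repeats that was estimated from all 12 libraries, not only the 4 compared. This spread may be technical.

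ARID1A itself (chromosome 1, 26693236 to 26782104, GRCh38 as all positions here) was counted at 165 and 147 CPM in the knockout libraries and at 2695 and 2878 CPM in the ΔIDR1b libraries. The groups did not overlap, and the log2 fold change was 4.16 (SE 0.11, adjusted p = 4.15e-25, edgeR quasi-likelihood test with Benjamini-Hochberg adjustment, as for every adjusted p below). Transcripts of the gene therefore remained counted in the knockout, and counts in the ΔIDR1b group include the transgene. The WT libraries stood at 2038 and 2074 CPM, and ΔIDR1b over WT was 0.44 (log2, SE 0.09, adjusted p = 6.91e-04). This difference in the amount of ARID1A transcript accompanies every comparison of ΔIDR1b with WT below.

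Of 20377 genes tested, 6778 (33.3%) differed between the groups at an adjusted p under 0.05. They split almost evenly into 3349 genes (16.4%) higher with ΔIDR1b and 3429 genes (16.8%) lower. These shares are the background for the counts of gene lists below. Most lists hold protein-coding genes, of which 21.6% were higher and 16.2% lower among 14154 tested. A list of such genes with about that share higher does not stand out from them. Among protein-coding genes with more than 10000 bases of exon, 27.7% were higher and 11.8% lower. Most changes were small. The median absolute log2 fold change of the genes called was 0.72, or 1.65-fold, and 1018 genes (5% of those tested) rose and 1309 genes (6.42%) fell by at least 1 on the log2 scale. Past a log2 change of 2, falls outnumbered rises, 657 to 235. At a log2 change of at least 1, protein-coding genes went the other way, with 813 rises and 352 falls. Falls of that size outnumbered rises in antisense genes (314 to 51) and in processed pseudogenes (169 to 19). For 14043 genes (68.9%) the libraries of one group all lay above those of the other. With 2 libraries in each group such separation is frequent without any difference, and more genes separated than were called. The median log2 fold change over all genes was 0.00. With library totals in place of TMM factors the median moved up by 0.12 and the split became 4535 higher to 2544 lower. The number of genes called fell to 4495 without knockout repeat 2 and to 4484 without ΔIDR1b repeat 2.

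Among the largest rises by the naming rule were keratin genes. KRT17 (chromosome 17, 41619442 to 41624842), a keratin of stressed and basal epithelia, went from 0.743 and 2.84 CPM in the knockout libraries to 269 and 263 CPM in the ΔIDR1b libraries. That is a log2 rise of 7.21 (SE 0.23, adjusted p = 3.55e-22), the largest by the naming rule, which asked for at least 5 CPM in the higher group. KRT17 has near-identical keratin copies and pseudogenes. Fragments that mapped to several places were not counted, so its count is uncertain and may be too low. KRT75 (chromosome 12, 52424070 to 52434371), a keratin of the hair follicle, rose from 0.743 and 0.823 CPM to 16.8 and 19.1 CPM, by 4.50 (SE 0.31, adjusted p = 2.26e-13). EPPK1, an epiplakin that binds keratin filaments, rose from 2.97 and 1.57 CPM to 29.1 and 31 CPM, by 3.72 (SE 0.25, adjusted p = 1.64e-13). In all 3 genes both ΔIDR1b libraries lay several-fold above both knockout libraries, and the naming rule itself asked for groups that did not overlap. Of 20 tested genes on a list of keratins and epithelial junction genes, 5 (25%) rose and 2 (10%) fell, with a median of 0.27 against 0.00 over all genes. The other changed members included the claudin CLDN4 (1.76) and the junction scaffold TJP1 (0.63), which rose. With library totals only, 9 of the list rose.

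Of 36 tested collagens and matrix glycoproteins, 16 (44.4%) rose and 3 (8.33%) fell, with a median log2 fold change of 0.36. Tenascin C (TNC, chromosome 9, 115019575 to 115118257), an anti-adhesive matrix glycoprotein, went from 1.04 and 0.673 CPM to 16.6 and 16.7 CPM, a rise of 4.26 (SE 0.29, adjusted p = 2.66e-13). Thrombospondin 2 (THBS2), a glycoprotein that regulates matrix assembly and angiogenesis, had 0 counts over both knockout libraries and 53 counts over both ΔIDR1b libraries, at least 17.1-fold higher than 3 counts over the knockout group. Thrombospondin 1 (THBS1), which can activate latent TGF-β, rose by 2.17 (SE 0.46, adjusted p = 4.03e-04). Larger structural genes rose by less and were called from higher counts. Agrin (AGRN), a basement membrane proteoglycan, stood at 65.3 and 60.9 CPM against 167 and 163 CPM. The laminin chain LAMA5 went from 127 CPM in both knockout libraries to 244 and 246 CPM, and fibronectin (FN1) from 188 and 186 CPM to 294 and 321 CPM. The 3 that fell were COL11A2, COL9A2 and LAMA3, by 0.72, 0.63 and 0.34. None of the list fell without knockout repeat 1 or without ΔIDR1b repeat 1, and 1 fell without knockout repeat 2 or without ΔIDR1b repeat 2. When trends with GC content and exonic length were removed, 9 fell in place of 3, while the number that rose stayed at 16. With library totals only, 20 rose and 0 fell. Of 24 tested cadherins and integrins, 6 (25%) rose and 0 fell, but 2 were called without ΔIDR1b repeat 2.

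Among secreted ligands, CCN3, a matricellular protein, rose by 4.68 (SE 0.52, adjusted p = 1.13e-08), from 0.0743 and 0.299 CPM to 4.02 and 6 CPM. INHBA, which encodes the subunit of activin A, went from 3.35 and 1.57 CPM to 17.6 and 20.1 CPM, a rise of 2.93 (SE 0.27, adjusted p = 1.85e-10). GDF6, a BMP family ligand, rose from 0.892 and 0.598 CPM to 5.7 and 5.36 CPM, and ADM2, a peptide of the calcitonin family, from 1.41 and 1.05 CPM to 9.07 and 8.65 CPM. Both ΔIDR1b libraries were above both knockout libraries in each of these 4 genes, a condition of the naming rule for the largest rises. On the list of TGF-β and BMP pathway genes, 9 of 32 tested (28.1%) rose and 8 (25%) fell, so the ligands that rose stood beside members that fell. The BMP antagonist NOG fell from 60.1 and 46.4 CPM to 16 and 8.44 CPM (log2 fold change -2.12, SE 0.20, adjusted p = 4.21e-10). ID3, a direct target of BMP signalling and an inhibitor of bHLH factors, fell from 216 and 199 CPM to 55 and 49.8 CPM (-1.99, SE 0.12, adjusted p = 1.86e-14).

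Receptors that rose included NOTCH3, from 47.1 and 47.8 CPM to 160 and 177 CPM (log2 fold change 1.83, SE 0.12, adjusted p = 1.64e-13), and NOTCH1, from 45.1 and 44 CPM to 114 and 116 CPM (1.36, SE 0.13, adjusted p = 2.65e-10). Both are Notch receptors, which are cleaved on contact with a ligand-bearing cell and then switch on HES and HEY genes. Their targets did not move in 1 direction. HES4 fell from 487 and 459 CPM to 172 and 130 CPM, while HES5 rose from 0.743 and 0.224 CPM to 2.34 and 2.93 CPM, a call that was lost without knockout repeat 2 (adjusted p = 0.131) and without ΔIDR1b repeat 2 (adjusted p = 0.0674). Over the Notch list, 7 of 23 tested genes (30.4%) rose and 6 (26.1%) fell. AXL, a receptor tyrosine kinase, rose from 3.72 and 4.86 CPM to 17.8 and 14.4 CPM, and GPR3, an orphan receptor coupled to cAMP, from 0.892 and 0.449 CPM to 5.7 and 5.15 CPM. Of 19 tested Wnt targets and feedback genes, 7 (36.8%) rose and 1 (5.26%) fell, among them CCND1 (cyclin D1), from 16.2 and 17.7 CPM to 42 and 50.2 CPM. The number of these Wnt genes that rose was 4 without knockout repeat 2, 3 without ΔIDR1b repeat 2 and 4 with DESeq2.

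Genes that ERK signalling switches on as its own brakes were 6 higher (40%) and 2 lower (13.3%) of 15 tested, with a median log2 fold change of 0.45. SPRY4, a Sprouty inhibitor of receptor tyrosine kinase signalling, went from 0.372 and 0.15 CPM, both near the level of 3 counts, to 3.36 and 2.79 CPM (3.51, SE 0.54, adjusted p = 4.15e-06). ETV5, an ETS factor of the PEA3 group, went from 1.78 and 1.27 CPM to 5.04 and 6.79 CPM (1.95, SE 0.34, adjusted p = 2.64e-05). SPRED1, which recruits neurofibromin to RAS, rose by 1.41. SPRY1 fell by 0.64 and the phosphatase DUSP5 by 0.60, so members of the same families differed in direction.

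YAP and TAZ work through the TEAD factors, and their best known targets split into both directions. Of 21 tested members of the list, 8 (38.1%) rose and 3 (14.3%) fell, and 6 rose and 1 fell without knockout repeat 2. ANKRD1 (chromosome 10, 90912096 to 90921087), a nuclear and sarcomeric ankyrin protein, went from 3.27 and 2.39 CPM to 17.2 and 21.7 CPM, a rise of 2.78 (SE 0.23, adjusted p = 2.07e-11). CCN1, a matricellular target, moved the other way, from 354 and 341 CPM to 115 and 137 CPM, with a log2 fold change of -1.46 (SE 0.11, adjusted p = 1.35e-12). CCN2 fell from 5.65 and 9.42 CPM to 3.95 and 4.15 CPM, a call that was lost without knockout repeat 2 (adjusted p = 0.28) and without ΔIDR1b repeat 1 (adjusted p = 0.053). The factors changed little. YAP1 stood at 48.6 and 49.9 CPM against 53.9 and 54.3 CPM (0.14, adjusted p = 0.415), and TEAD1 rose by 0.42.

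The windows 250 bases upstream of the start site were read for the genes with a RefSeq promoter (GRCh38.p14), which 12582 of the 20377 tested genes had, and 8 of the 12 genes with the largest rises. They were searched on both strands for 5 motifs. The AP-1 motif was searched as TGANTCA. For TEAD factors the letters were GGAATG. The TATA box was read as TATAAA, the E-box was read as CACGTG, and the site of ETS factors was read as CCGGAAG. Among those 8 promoters, TGANTCA was in 2, GGAATG in 3 and TATAAA in 2. Shown first are the promoters of 3 genes that rose, chosen because they hold the TEAD letters, with matches in capitals, 5′ to 3′ on the strand of the gene.
ANKRD1 (chr10:90921088-90921337, minus strand): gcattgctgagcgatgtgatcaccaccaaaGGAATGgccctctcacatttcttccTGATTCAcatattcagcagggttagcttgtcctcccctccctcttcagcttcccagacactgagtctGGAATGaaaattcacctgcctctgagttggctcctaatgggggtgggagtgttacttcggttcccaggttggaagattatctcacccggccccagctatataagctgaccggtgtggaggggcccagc
SRPX2 (chrX:100643949-100644198, plus strand): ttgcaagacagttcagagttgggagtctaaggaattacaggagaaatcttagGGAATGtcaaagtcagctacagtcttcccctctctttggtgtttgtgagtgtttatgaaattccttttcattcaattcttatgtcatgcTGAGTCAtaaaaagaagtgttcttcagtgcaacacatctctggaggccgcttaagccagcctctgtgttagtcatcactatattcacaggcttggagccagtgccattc
THBS2 (chr6:169253847-169254096, minus strand): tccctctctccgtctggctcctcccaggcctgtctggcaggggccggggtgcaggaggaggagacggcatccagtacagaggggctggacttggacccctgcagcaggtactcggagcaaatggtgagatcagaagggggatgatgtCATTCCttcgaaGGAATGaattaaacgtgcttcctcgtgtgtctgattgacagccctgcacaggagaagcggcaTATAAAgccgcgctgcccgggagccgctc
The ANKRD1 window holds GGAATG 220 and 128 bases before the start, on each side of an AP-1 match at 195 bases. The SRPX2 window holds GGAATG at 198 bases and TGAGTCA, a form of TGANTCA, at 109 bases. In the THBS2 window 2 TEAD matches face each other at 103 and 91 bases, the first as CATTCC on the opposite strand, and TATAAA lies at 29 bases. SRPX2, which encodes a secreted sushi-repeat protein, rose from 1.19 and 0.972 CPM to 7.02 and 7.58 CPM (2.74, SE 0.38, adjusted p = 1.04e-06), and 52% of its exonic bases are shared with other gene names.

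Set against all promoters of this length, these letters are common. GGAATG stood in 9.35% of the promoters of tested genes (11.9% of all 27305 promoters in the table), in 9.87% of those of genes that rose by at least 1 on the log2 scale and in 10.5% of those of genes that fell by at least 1. TGANTCA stood in 3.95% of the promoters of tested genes (6.6% of all promoters), in 6.43% for genes that rose by at least 1 and in 4.22% for genes that fell by at least 1. TATAAA stood in 5.87% of the promoters of tested genes (11.1% of all), in 8.22% for rises and in 11.7% for falls of at least 1. CACGTG stood in 8.61% of the promoters of tested genes (6.49% of all) and CCGGAAG in 14.3% (8.82% of all). A match describes these letters in this window, not a bound site.

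Immediate early genes, which transcribe within minutes of a stimulus and make unstable mRNAs, included large falls. FOS (chromosome 14, 75278826 to 75282230), a subunit of AP-1, went from 191 and 181 CPM in the knockout libraries to 17.9 and 18.1 CPM in the ΔIDR1b libraries, a log2 fold change of -3.37 (SE 0.12, adjusted p = 7.82e-21). FOSB went from 19.6 and 15.1 CPM to 2.78 and 3.22 CPM (-2.53), and JUNB from 233 and 201 CPM to 77.1 and 69.7 CPM (-1.56). NR4A2, an orphan nuclear receptor of the same response, went from 47.1 and 42.1 CPM to 5.63 and 5.29 CPM (-3.03, SE 0.19, adjusted p = 4.65e-14). The fall was not shared by the whole list of AP-1 and immediate early factors, of which 7 of 17 tested genes (41.2%) fell and 4 (23.5%) rose. Among the 11 with little exon overlap, 4 fell and 4 rose. The median of the list was -0.22, but 0.002 without knockout repeat 1 and -0.42 without knockout repeat 2. EGR1 rose from 9.44 and 10.9 CPM to 27.3 and 29.2 CPM (1.47, SE 0.17, adjusted p = 3.51e-08), and EGR3, FOSL1 and FOSL2 rose by 1.37, 1.16 and 1.07.

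RGS2, a brake on signalling from Gq-coupled receptors, fell from 66.4 and 65.7 CPM to 7.53 and 7.79 CPM (-3.11, SE 0.21, adjusted p = 1.48e-13). The chemokine receptor CXCR4 (chromosome 2, 136114349 to 136119177) fell from 258 and 243 CPM to 33 and 29.5 CPM (-3.00, SE 0.12, adjusted p = 2.65e-19). Both groups were far apart in these genes, with repeats of a group close together, and the naming rule asked for groups that did not overlap. Among the 12 largest falls by the naming rule was H2BC21. This histone H2B gene (chromosome 1, 149884459 to 149886682) went from 113 and 120 CPM to 4.68 and 5.65 CPM (-4.49, SE 0.20, adjusted p = 2.79e-18). The promoters of FOS and H2BC21 are shown as 2 of the falls with the TATA box letters, in capitals, on the strand of the gene.
FOS (chr14:75278578-75278827, plus strand): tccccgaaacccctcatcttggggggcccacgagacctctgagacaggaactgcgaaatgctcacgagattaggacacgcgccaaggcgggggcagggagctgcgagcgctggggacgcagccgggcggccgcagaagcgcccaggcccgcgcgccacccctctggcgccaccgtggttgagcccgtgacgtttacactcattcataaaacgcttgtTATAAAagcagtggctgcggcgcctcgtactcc
H2BC21 (chr1:149886683-149886932, minus strand): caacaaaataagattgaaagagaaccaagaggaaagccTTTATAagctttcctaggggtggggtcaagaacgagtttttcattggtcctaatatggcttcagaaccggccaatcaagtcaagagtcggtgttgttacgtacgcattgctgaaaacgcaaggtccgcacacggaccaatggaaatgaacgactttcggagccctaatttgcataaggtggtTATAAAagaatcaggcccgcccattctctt
TATAAA lies 33 bases before the start of FOS and 30 bases before that of H2BC21, which holds it again at 212 bases as TTTATA on the opposite strand.

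Genes of glycolysis and the hypoxia response, most of them targets of the HIF factors, were mostly lower. Of 31 tested, 20 (64.5%) fell and 1 (3.23%) rose, with a median log2 fold change of -0.34. The peptide hormone ADM (adrenomedullin) fell from 376 and 354 CPM to 64 and 58.7 CPM (-2.57, SE 0.15, adjusted p = 7.22e-15), and the glucose transporter SLC2A3 from 354 and 376 CPM to 96.9 and 106 CPM (-1.85, SE 0.10, adjusted p = 4.53e-16). The glycolytic enzyme GAPDH went from 4792 and 4768 CPM to 2657 and 2591 CPM (-0.87, SE 0.09, adjusted p = 8.48e-09). PDK1, which inhibits pyruvate dehydrogenase, fell by 0.90, and BNIP3, a mitophagy receptor, by 1.12. ANKRD37 and ALDOA fell by 3.75 and 2.80, but 40.3 and 54.2% of their exonic bases are shared with other gene names, where fragments were not counted. CA9 alone rose, from 1.71 and 1.2 CPM to 4.31 and 3.43 CPM (1.41). VEGFA, a HIF target placed on the ATF4 list here, fell from 429 and 411 CPM to 161 and 120 CPM.

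Of 20 tested genes of the unfolded protein response of the endoplasmic reticulum (ER), 11 (55%) fell and 3 (15%) rose, with a median of -0.33. Among the 13 with little exon overlap 6 fell and 3 rose, with a median of -0.13, and with library totals only the median of the list was -0.21. HSPA5 (BiP), the main ER chaperone, went from 2089 and 2204 CPM to 622 and 722 CPM, with a log2 fold change of -1.68 (SE 0.10, adjusted p = 2.52e-15). HSP90B1 (GRP94) went from 1219 and 1306 CPM to 658 and 682 CPM (-0.91), and DNAJB9, a co-chaperone of BiP, from 51.4 and 50.8 CPM to 15.8 and 14 CPM (-1.78). The transcription factors XBP1 and ATF6 and the degradation adaptor SEL1L were the 3 that rose, by 0.69, 0.34 and 0.65. On the ATF4 list, the branch that responds to amino acid shortage and other stress, 7 of 26 genes (26.9%) rose and 9 (34.6%) fell. CHAC1, which degrades glutathione, rose from 5.43 and 3.44 CPM to 24.6 and 16.3 CPM (2.20), while DDIT4, an inhibitor of mTORC1, fell from 1469 and 1321 CPM to 503 and 407 CPM (-1.62). The cytosolic heat shock list had 6 of 23 higher (26.1%) and 6 lower, and 5 higher and 3 lower without knockout repeat 2. Cholesterol synthesis genes were 9 lower (39.1%) and 1 higher (4.35%) of 23, with MSMO1, a sterol demethylase, from 79.3 and 87.8 CPM to 30.2 and 32.7 CPM (-1.41) and INSIG1, the sterol-sensing brake of the pathway, from 186 and 181 CPM to 74.2 and 81.7 CPM (-1.24). The list had 3 higher and 10 lower when WT repeat 1 or WT repeat 2 with EWS-FLI1 was left out, 4 and 12 with only the libraries compared, 4 and 9 with library totals, and 1 and 14 with the replicate block and GC and length trends removed.

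All 78 genes for cytosolic ribosomal proteins fell, with a median log2 fold change of -0.71 against 0.00 over all genes. RPS2, a protein of the small subunit, had the largest loss of CPM per kb of exon among them and went from 6134 and 6137 CPM to 4070 and 3791 CPM (-0.64, SE 0.10, adjusted p = 3.09e-06). RPL34, of the large subunit and with 0% exon overlap, went from 517 and 429 CPM to 236 and 200 CPM (-1.12, SE 0.12, adjusted p = 1.32e-08). Their summed level went from 87786 and 79877 CPM to 55756 and 49977 CPM, with no overlap. The largest falls, RPS10 (-2.67) and RPL17 (-2.11), were in genes whose exons overlap those of other gene names, read-through genes among them, by 40.3 and 35.5%. The median ran from -0.81 to -0.59 over the 26 other settings, and 49 of 49 fell among members with under 5% overlap. Ribosomal protein genes have many processed pseudogenes, and fragments that mapped to several places were not counted. Nuclear genes of the respiratory chain were 49 lower (64.5%) and 2 higher (2.63%) of 76, with a median of -0.43. COX7B, a subunit of cytochrome c oxidase without exon overlap, went from 42.6 and 44 CPM to 20.4 and 19.5 CPM (-1.12, SE 0.16, adjusted p = 1.83e-06). For the respiratory chain 28 fell without knockout repeat 1 and 30 without ΔIDR1b repeat 2. The 13 protein-coding genes of the mitochondrial genome had 3 higher and 4 lower, 2 and 2 without knockout repeat 1 or without ΔIDR1b repeat 2, 4 and 2 without ΔIDR1b repeat 1, 6 and 4 with the replicate block, and 10 and 0 once GC and length trends were taken out.

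Zinc finger genes of chromosome 19 are mostly KRAB repressors of transposable elements and lie in large clusters. Of 194 tested ZNF genes there, 90 (46.4%) rose and 10 (5.15%) fell, with a median of 0.59. ZNF613 went from 0.743 and 0.673 CPM to 5.26 and 4.65 CPM (2.79, SE 0.45, adjusted p = 9.39e-06), and ZNF256 from 1.34 and 1.05 CPM to 5.56 and 4.22 CPM (2.03). The number that rose was 56 without knockout repeat 2 and 62 without ΔIDR1b repeat 2. The median exonic length of the list was 5442.5 bases, close to the 5318 bases of protein-coding genes (4152 bases over all genes tested). Chromosome 19 as a whole had the highest median log2 fold change of any chromosome, 0.11. Among interferon and MHC class I genes, 9 of 31 (29%) rose and 5 (16.1%) fell, and 7 and 3 without knockout repeat 2. IFIT2, which binds viral RNA, rose from 36.9 and 35 CPM to 198 and 224 CPM (2.56, SE 0.11, adjusted p = 3.07e-18), and IFI27 from 1.64 and 2.39 CPM to 8.11 and 9.36 CPM (2.11). ISG15, the ubiquitin-like interferon product, moved the other way, from 79 and 67.1 CPM to 38.5 and 33.2 CPM (-1.03), as did B2M, the light chain of MHC class I (-0.33).

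HOX genes, the homeobox genes that set position along the body axis and are classical Polycomb targets, were 18 lower (48.6%) and 3 higher (8.11%) of 37 tested, with a median of -0.30. HOXA13 went from 90.3 and 81.9 CPM to 37.4 and 35.2 CPM (-1.25, SE 0.14, adjusted p = 2.72e-08) and HOXB2 from 47.4 CPM in both knockout libraries to 19.6 and 15.5 CPM (-1.43, SE 0.16, adjusted p = 9.03e-09). The members that rose were HOXB3, HOXA3 and HOXD8, with 0.42, 0.75 and 0.84, and 1 rose without knockout repeat 1, without knockout repeat 2 or without ΔIDR1b repeat 1. Polycomb subunits were 13 lower (48.1%) and 2 higher (7.41%) of 27. EED, a core subunit of PRC2, went from 69.2 and 78.5 CPM to 39.4 and 41 CPM (-0.88), the methyltransferase EZH2 from 140 and 149 CPM to 107 and 122 CPM (-0.34), and BMI1, of PRC1, from 74.6 and 86.7 CPM to 41.2 and 45.7 CPM (-0.89). The chromobox genes CBX6 and CBX7 were the 2 that rose, by 1.28 and 1.04, and 4 rose with the replicate block.

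Among 27 SWI/SNF subunits other than ARID1A, 5 (18.5%) fell and 2 (7.41%) rose, against 16.8% and 16.4% of all genes tested, so the share that fell was near that of all genes. ARID1B, the paralog that shares the place of ARID1A, went from 140 and 132 CPM to 97.7 and 96.2 CPM (-0.49, SE 0.11, adjusted p = 5.57e-04). The core subunit SMARCB1 went from 231 and 204 CPM to 165 and 153 CPM (-0.45). SMARCE1, a DNA-binding subunit, fell by 1.84, from 26 and 26.7 CPM to 7.02 and 7.65 CPM, with 18.9% of its exonic bases shared with other gene names. The catalytic subunits SMARCA4 (450 and 435 CPM against 437 and 442 CPM, -0.01) and SMARCA2 (-0.05) were not called. BICRAL, of the non-canonical complex, had a log2 fold change of 0.96, not called without knockout repeat 2 (adjusted p = 0.073). The number that fell was 3 without knockout repeat 1, 8 with the replicate block and 15 once GC and length trends were taken out, and 0 rose without knockout repeat 2.

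Cell cycle genes did not move as a group. Of 37 genes of S phase, 12 (32.4%) rose and 9 (24.3%) fell, with a median of 0.03, and of 36 mitotic genes 3 (8.33%) rose and 10 (27.8%) fell, with a median of -0.06. FEN1, the flap endonuclease, rose from 70.4 and 66.3 CPM to 138 and 134 CPM (1.00, SE 0.11, adjusted p = 5.15e-09). MKI67, the proliferation antigen, rose from 253 and 245 CPM to 461 and 507 CPM (0.96), while the ubiquitin-conjugating enzyme UBE2C fell from 205 and 212 CPM to 130 and 119 CPM (-0.74). The p53 targets CDKN1A (p21) and BTG2 rose by 0.85 and 1.17 within a list of 6 higher and 2 lower of 22. Without knockout repeat 2, the S phase genes were 6 higher and 3 lower, and without any other of the 4 libraries they were 8 higher and 5 lower.

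Replication-dependent histone mRNAs end in a stem-loop in place of a polyA tail, so few of them are captured by the oligo(dT) selection used here. Of 66 such genes 26 passed the filter on low counts, 16 (61.5%) of them fell and 0 rose, with a median of -2.65. H3C10 went from 21.4 and 18.4 CPM to 1.54 and 1.43 CPM (-3.74, SE 0.29, adjusted p = 7.51e-12) and the linker histone H1-2 from 42.2 and 36.1 CPM to 5.41 and 4.29 CPM (-3.01, SE 0.19, adjusted p = 4.65e-14). Histone genes have near-identical copies, and fragments that mapped to several places were not counted, so their counts are uncertain and may be too low. The summed level of the 26 tested members fell from 279 and 278 CPM to 35.2 and 33.4 CPM. Small nucleolar RNAs (snoRNAs), which guide the modification of ribosomal RNA, are cut from introns and also lack a polyA tail. Of 86 tested, 48 (55.8%) fell and 0 rose, with a median of -2.14. SNORA66 went from 25 and 27 CPM to 1.17 and 1.93 CPM (-4.06) and SNORD46 from 12.6 and 12.4 CPM to 1.02 and 0.429 CPM (-4.10). SNHG genes are spliced hosts of snoRNAs. Of 24 tested 17 (70.8%) fell and 0 rose, with a median of -1.21, and 7 were not called. The median exon overlap of the list was 13.6%, and 2 of the 24 had under 5%. SNHG1 went from 710 and 800 CPM to 164 and 167 CPM (-2.19, SE 0.11, adjusted p = 5.99e-17).

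Across all genes, the direction of change varied with the kind of transcript and its length. Over all genes tested, 16.4% were higher and 16.8% lower. Protein-coding genes were 3061 higher (21.6%) and 2288 lower (16.2%) of 14154 tested. Antisense genes were 74 higher (4.26%) and 355 lower (20.4%) of 1738, and processed pseudogenes 21 (2.06%) and 189 (18.6%) of 1017. In both classes the share lower was near that of all genes, and the share higher was well below it. Sense intronic genes were 5 higher (1.81%) and 75 lower (27.2%) of 276. Without strand in the counting, reads of an antisense gene and its partner cannot be told apart. Among protein-coding genes with up to 500 bases of exon the median log2 fold change was -0.77 over 22 genes, and with more than 10000 bases it was 0.14 over 2240 genes. Among those whose longest exon block exceeded 5000 bases, 34.4% rose and 11.8% fell. Genes with over 80% of their exonic bases shared with other gene names were 3 higher (2.03%) and 28 lower (18.9%) of 148. The part of transcript class, length and overlap in the changes of single genes was not tested.

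Of 25 kidney developmental factors, 23 were tested. They summed to 867 and 839 CPM in the knockout and to 679 and 638 CPM with ΔIDR1b. The 23 tested members of a list of 36 neuronal genes summed to 1067 and 1072 CPM and to 857 and 871 CPM. These levels therefore do not single out a kidney origin. PAX2, which marks the early nephron lineage, stood at 9.74 and 9.72 CPM against 10.6 and 7.86 CPM. SIX2, of the nephron progenitors, fell from 40.4 and 46.9 CPM in the knockout to 29.9 and 32.1 CPM with ΔIDR1b, by 0.49 on the log2 scale. In all 6 rose and 6 fell (26.1% each), or 3 and 3 without ΔIDR1b repeat 1 and 3 and 4 without knockout repeat 2 or without ΔIDR1b repeat 2, and WT1 went from 6.76 and 7.4 CPM to 14.6 and 13.7 CPM. Markers of leukocytes, endothelium, muscle and hepatocytes were low but not all at 0. Summed over the members that passed the filter, these marker lists held 2.45 to 9.07 CPM per library in the knockout. With ΔIDR1b the range was 1.61 to 10 CPM. PTPRC, PECAM1 and MYOG did not pass the filter. Of the 8 fibroblast markers, the 5 that passed the filter summed to 93.2 and 98.2 CPM against 130 and 135 CPM. Most of it was COL1A1 (75.5 and 79.5 against 104 and 104 CPM).

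The same ARID1A contrast was read in 4 libraries with EWS-FLI1. Their means do not enter the fold changes above, but they share the filter, the scaling and the estimate of spread of the fit, and 6409 to 6738 genes were called in the main comparison when 1 of these 4 was left out. There 7321 genes (35.9%) were called, 3680 higher (18.1%) and 3641 lower (17.9%). A total of 5330 genes were called in the same direction with both vectors, which is 78.6% of the genes called with the empty vector and 72.8% of those called with EWS-FLI1, and 3 were called in opposite directions. Of the genes called with the empty vector, 98.8% had the same sign with EWS-FLI1, against 83.1% of all genes tested. With EWS-FLI1, 78 of 78 ribosomal protein genes were lower, 81 of 194 zinc finger genes higher and 18 of 26 histone genes lower. Other lists had other counts than with the empty vector. The mitochondrial genome had 7 higher and 1 lower in place of 3 and 4, the heat shock list 4 and 10 in place of 6 and 6, and the S phase list 9 and 11 in place of 12 and 9. These differences between the lists' counts were not tested. Among the largest rises, KRT17, TNC and ANKRD1 had log2 fold changes of 7.48, 4.59 and 2.33 with EWS-FLI1, and GDF6 had 0.68, which was not called. Among the falls, FOS, CXCR4 and H2BC21 had -3.54, -3.26 and -4.14.

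The difference between the vectors itself was called for 4 genes (0.0196%). At an unadjusted p under 0.05 there were 702, fewer than that threshold would pass among 20377 genes with no difference. Of the 4 genes called, 3 (0.0147%) were lower with EWS-FLI1 and are heat shock genes, and 1 (0.00491%) was higher, PTGS2, the inducible cyclooxygenase. HSPA6, a strictly inducible HSP70, went from 11.2 and 12.3 CPM to 26.2 and 22.3 CPM with the empty vector, but from 4.26 and 4.06 CPM to 0.566 and 0.487 CPM with EWS-FLI1. PTGS2 went from 29.4 and 25.4 CPM to 13.1 and 15.7 CPM with the empty vector and from 34.3 and 32.1 CPM to 46.5 and 42.8 CPM with EWS-FLI1. In both genes the groups did not overlap in either setting and the direction was opposite.

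The WT group with the empty vector shows levels in cells of the same knockout line overexpressing the complete protein. How far differences between the groups came from the protein itself was not tested. WT against knockout shares the knockout libraries with the main comparison, and ΔIDR1b against WT shares the ΔIDR1b libraries, so the values are given side by side. WT against knockout called 2381 genes (11.7%), 1324 higher (6.5%) and 1057 lower (5.19%), and 3606 with the replicate block. It called 814 without knockout repeat 2 and 802 without WT repeat 1. ΔIDR1b against WT called 4995 genes (24.5%), 2267 higher (11.1%) and 2728 lower (13.4%), and 2754 without WT repeat 1. Of the 3349 genes higher with ΔIDR1b than in the knockout, 1491 were also higher than in WT, 1848 did not differ by the test and 10 were lower than in WT. Of the 3429 lower genes, 1980 were also lower than in WT, 1444 were not called and 5 were higher.

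Several of the largest rises were as large with WT. KRT17 stood at 373 and 324 CPM in WT, above ΔIDR1b by 0.39 on the log2 scale (ΔIDR1b over WT -0.39, SE 0.14, adjusted p = 0.0458). ANKRD1 stood at 18.4 and 17.5 CPM in WT and INHBA at 16.6 and 12.9 CPM, and neither differed from ΔIDR1b by the test (0.12, SE 0.19, adjusted p = 0.697, and 0.35, SE 0.22, adjusted p = 0.252). Other rises were larger with ΔIDR1b. EPPK1 stood at 6.62 and 7.55 CPM in WT (ΔIDR1b over WT 2.08, adjusted p = 1.16e-08), ADM2 at 1.04 and 1.64 CPM, the knockout level (2.71, adjusted p = 2.10e-06), and SLC16A13, a monocarboxylate transporter family member, at 1.71 and 0.598 CPM against 13 and 10.7 CPM with ΔIDR1b and 2.01 and 2.84 CPM in the knockout (3.35, adjusted p = 4.28e-06).

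Some of the named falls were graded, with WT between the other groups. FOS stood at 72.1 and 64.5 CPM in WT, CXCR4 at 87.3 and 92.5 CPM, ADM at 130 and 154 CPM and H2BC21 at 27.3 and 23.3 CPM, in each case below both knockout libraries and above both ΔIDR1b libraries, and each differed from ΔIDR1b by the test (-1.92, -1.52, -1.21 and -2.29). HOXA13 and HOXB2 stood at 27.7 and 34.1 CPM and at 22.2 and 22.4 CPM in WT and did not differ from ΔIDR1b by the test (0.23, adjusted p = 0.265, and -0.35, adjusted p = 0.114). The HOX list had 18 lower and 0 higher in WT against knockout, the same number of falls as with ΔIDR1b.

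In other genes ΔIDR1b fell below both of the other groups. CCN1 stood at 607 and 534 CPM in WT, 0.72 above the knockout, and ΔIDR1b lay 2.18 below WT (SE 0.11, adjusted p = 3.86e-16). HSPA5 stood at 3092 and 2842 CPM in WT, 0.47 above the knockout, with ΔIDR1b 2.14 below WT (SE 0.10, adjusted p = 3.90e-17). CCN2 was 1.11 higher in WT than in the knockout, at 18.2 and 14.5 CPM. The ribosomal protein genes had a median of -0.04 in WT against knockout, with 5 of 78 lower, and 78 of 78 were lower in ΔIDR1b than in WT. The nuclear respiratory chain genes had 3 higher and 3 lower of 76 in WT against knockout and 54 lower and 0 higher in ΔIDR1b against WT. The zinc finger genes had 17 higher and 7 lower of 194 in WT against knockout, and 61 higher and 6 lower in ΔIDR1b against WT.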

How the data were processed

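The deposited values are raw counts of read pairs per gene name, made by the authors with featureCounts 2.0.1 on exons of GENCODE release 41 (GRCh38.p13), per the file headers. Pairs needed both ends aligned, strand was not used, and pairs with several map positions or several genes were dropped. STAR, SAMtools and edgeR are named in the submitters' processing notes, with their versions not given in the sources used here. Of 60645 gene names, 20377 passed filterByExpr (minimum count 10, minimum total 15). A quasi-likelihood model with TMM factors and 1 mean for each of the 6 groups was fitted to all 12 libraries in edgeR 4.0.16 (R 4.3.3, limma 3.58.1), and genes were called at a 2-sided Benjamini-Hochberg adjusted p under 0.05. The SE is the log2 fold change divided by the square root of F. DESeq2 1.42.0, other scalings, no filter, the replicate block, removal of GC and length trends and each library left out were tried. The procedure was also run on simulated data, with the same spread in every gene and library and with independent repeats. The real libraries differ from this, so that run does not show how the test behaves here. Members, lists and the naming rule were chosen with earlier results of these data known. The rule named ARID1A, then the 12 largest rises and falls and the 4 largest per kb. These had at least 5 CPM in the higher group and no overlap between the groups. Up to 4 members of each list and any member whose role is explained were also named. The promoters, transcript classes and 16 coding rises and 16 coding falls with little exon overlap were added after values were seen. The deviations of same-numbered repeats correlated within each vector (r from 0.104 to 0.412 over 10695 genes with at least 10 CPM) and were negative across vectors (r from -0.223 to -0.00785), so the block pairs repeats within a vector. This pairing comes from the values, not the labels. Every pair of repeats differed beyond sampling noise (chi-square per degree of freedom at least 3.02). Intervals and floors of 3 counts cover counting error only. Exon overlap and lengths come from the header positions, and gene types by name from GENCODE 29. Some members of the lists are counted but are not reported here by name.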

Additional observations from a re-analysis of the deposited data

Results flagged for a closer look

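The effect of ΔIDR1b against no ARID1A differed between the empty vector and EWS-FLI1 in 4 genes by the test of the difference itself (edgeR quasi-likelihood test, Benjamini-Hochberg). Each difference is EWS-FLI1 minus empty vector on the log2 scale. HSPA6 differed by -4.01 (SE 0.41, adjusted p = 2.97e-07). For HSPA1B the difference was -1.98 (SE 0.23, adjusted p = 3.20e-06). In DNAJB1 it came to -1.64 (SE 0.16, adjusted p = 8.55e-08), and PTGS2 had 1.36 (SE 0.20, adjusted p = 7.03e-04). HSPA1B stood at 537 and 584 CPM in the knockout and 634 and 689 CPM with ΔIDR1b under the empty vector, and at 421 and 396 CPM against 78.4 and 166 CPM under EWS-FLI1. DNAJB1 stood at 240 and 236 CPM against 182 and 214 CPM under the empty vector, and at 220 and 194 CPM against 50.8 and 59.6 CPM under EWS-FLI1. HSPA1B has a near-identical neighbour, HSPA1A, and 36.6% of its exonic bases are shared with other gene names.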

How the results depend on the processing

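Under the other scalings, filters and fits, every count of the ΔIDR1b comparison with the knockout stayed within 1.5 times its value, except where a log2 change of at least 1 was asked for (2327 called, 1018 higher, 1309 lower) or 1 library was left out. Leaving out 1 library gave 4484 to 7781 genes called, 2129 to 3868 higher and 2241 to 3913 lower, and where it left a group with 1 library, that library was assumed to vary like the other groups. The replicate block gave 3814 higher and 3845 lower, DESeq2 3015 and 3330, and factors from protein-coding genes, chosen after seeing the data, 2873 and 3887. With a log2 change of at least 1, 2570 genes were called with EWS-FLI1, 1393 against WT and 521 for WT against the knockout. The difference between vectors was called for 11 genes with the replicate block and GC and length trends removed, 26 with the block and only the libraries compared, and 2 among genes with little exon overlap. WT against the knockout called 3606 with the block, 3914 without GC and length trends, 4237 with both, 4112 with the block and only the libraries compared, and 3661 without GC, length and exon structure trends. The cause was not tested. Without 1 library, ΔIDR1b against WT called 2754 to 6138 genes and WT against the knockout 802 to 3550. Of 184 named genes, 33 lost their call under at least 1 setting and 0 reversed. Depth limits genes near 3 counts, whose fitted fold change depends on the prior count.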
